A study of Mus musculus with 26 samples.

Results

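The miR-30 family was measured as 10 mature strands in small RNA libraries from the CA1 region of the mouse hippocampus. The members were named strand by strand rather than picked by a measured value, though earlier results of these data were known. The guide strands are mmu-miR-30a-5p, mmu-miR-30b-5p, mmu-miR-30c-5p, mmu-miR-30d-5p and mmu-miR-30e-5p, where mmu stands for mouse. The 3p strands are mmu-miR-30a-3p, mmu-miR-30c-1-3p, mmu-miR-30c-2-3p, mmu-miR-30d-3p and mmu-miR-30e-3p. The members are 10 of 1915 entries in the deposited count table, and all 10 were among the 605 entries with enough reads to test. There were 26 libraries in 3 groups. The first group was 9 libraries from wild type littermates on vehicle, the second 7 libraries from CamkdeltaC transgenic mice on vehicle, and the third 10 libraries from CamkdeltaC transgenic mice on Vorinostat. In all groups the drinking water held the agent or its vehicle for 4 weeks. Mice were 2 months old at the start and 3 months old when tissue was taken. CamkdeltaC mice carry a CaM kinase II delta transgene and are a model of heart failure, and Vorinostat inhibits histone deacetylases. Which cells express the transgene is not stated in the labels, and no wild type mouse on Vorinostat was analysed. Nothing in the labels ties 1 library to 1 animal, so a p-value here reflects how libraries vary, which may be technical. In bulk tissue, fewer cells of a type and less RNA per cell cannot be told apart.

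A miRNA hairpin is cut into a short duplex whose strands are named 5p and 3p by their side of the hairpin. One strand is usually loaded into an Argonaute protein and guides it to mRNAs that pair with its seed, bases 2 to 8 counted from the 5′ end. The other strand, the passenger, is mostly degraded. In the miR-30 family the 5p strand is the usual guide and is abundant in neurons, heart and many epithelia. Targets studied for the miR-30 guides include mRNAs of extracellular matrix, autophagy and cell fate genes.

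The sequences are shown because guide strands of the family share a seed, and because several strands differ by few bases. Of the 10 strands, 7 were found in the RefSeq table for GRCm38.p6, and the seed is in capitals. The first 3 lines are guide strands, the next 4 are 3p strands, and the last is miR-384-5p, which has the guide seed but another name. It is not among the 10 members.
miR-30a-5p: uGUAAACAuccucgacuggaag
miR-30e-5p: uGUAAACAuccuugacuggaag
miR-30c-5p: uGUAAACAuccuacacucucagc
miR-30a-3p: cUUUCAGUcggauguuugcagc
miR-30e-3p: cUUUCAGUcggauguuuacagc
miR-30c-1-3p: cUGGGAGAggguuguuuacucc
miR-30c-2-3p: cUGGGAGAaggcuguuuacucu
miR-384-5p: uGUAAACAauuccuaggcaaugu
The 3 guides share the seed GUAAACA, whereas the 3p strands carry 2 other seeds, UUUCAGU in miR-30a-3p and miR-30e-3p and UGGGAGA in both miR-30c 3p strands. Counted from 1 at the 5′ end, miR-30a-5p and miR-30e-5p differ by a single substitution, C13U, and miR-30a-3p and miR-30e-3p by G18A. The strands miR-30c-1-3p and miR-30c-2-3p differ at G9A, U12C and C22U. How the authors' counting treated mismatches is not stated in the labels or headers, so the split of reads within the miR-30a and miR-30e pairs is uncertain.

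These hairpins lie in 2 close pairs on GRCm38. The hairpin of miR-30a (Mir30a, chr1:23272269-23272339, plus strand) overlaps no other gene in GENCODE M21. Mir30c-2 follows it on the same strand at chr1:23291701-23291784, in an exon of the long noncoding RNA gene Gm27028, after a gap of 19361 bases. On chromosome 4, Mir30c-1 (chr4:120769534-120769622, minus strand) and Mir30e (chr4:120772606-120772697, minus strand) lie in an intron of Nfyc, a subunit gene of the NF-Y transcription factor, on its strand and 2983 bases apart. The annotation also places Mir30f on the opposite strand at Mir30e. The mature miR-30c-5p is identical in both miR-30c hairpins, so its reads belong to either.

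Library totals ranged from 585188 to 24767468 counts, with a median of 11833357. The smallest library was wild type vehicle replicate 1, and this library and Vorinostat replicate 8 stood apart from the other 24. In wild type vehicle replicate 1 the 4 neuronal marker miRNAs summed to 196579 CPM (counts scaled to a library total of 1e6). This was below the 307569 to 469090 CPM of those 24, and all 4 had reads in every library. In Vorinostat replicate 8 the same sum was 422314 CPM, within that range. Among the miR-30 values checked for outlying libraries (below), only wild type vehicle replicate 1 was flagged. Marker miRNAs of thalamus and sensory tissue summed to 1330 CPM in wild type vehicle replicate 1 and 511 CPM in Vorinostat replicate 8, against 50.8 to 345 CPM in the others, and hindbrain markers to 95.7 and 156 CPM against at most 76.1 CPM. The part of these differences in the results was not tested. The comparisons of the members' counts are therefore also given without these 2 libraries. No 2 libraries held identical counts. The file headers name 2 lanes, L001 and L002, with 13 libraries each and every group in both.

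The guide strands differed widely in level among themselves, as the plot of all strands by library shows. Levels in CPM were compared between strands without a correction for length, since the strands shown above are nearly equal in length. Whether sequencing captured each strand equally well was not tested. The order of strands and the shares of 5p and 3p are therefore those of reads. Together the 5 guides made up 2.72% ± 0.583 (SD, n = 26) of all counts, from 0.790% in wild type vehicle replicate 1 to 3.55% in transgenic vehicle replicate 6. The 5 listed 3p strands made up 0.162% ± 0.0985 (SD, n = 26).

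miR-30d-5p was the most abundant member, with 15505 ± 3164 CPM (SD, n = 26) and rank 13 of 1389 entries with reads. Its lowest, median and highest values were 7041, 13463 and 20584 CPM in wild type vehicle libraries, 12679, 14982 and 19711 in transgenic vehicle libraries, and 13515, 17515 and 19407 in Vorinostat libraries. The groups overlapped, and miR-30d-5p exceeded miR-30c-5p in 26 of 26 libraries. It held 58.2% of the guide counts, between 44.5% and 73.7%.

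miR-30c-5p and miR-30a-5p came next and did not differ from each other beyond their spread. miR-30c-5p averaged 5258 ± 2462 CPM (SD, n = 26) and miR-30a-5p 4949 ± 1279 CPM, and miR-30a-5p was the lower of both in 13 of 26 libraries. Lowest, median and highest values of miR-30c-5p were 295, 6168 and 8448 CPM in wild type vehicle, 3446, 6689 and 8872 in transgenic vehicle, and 1400, 6045 and 7868 in Vorinostat libraries. The values of miR-30c-5p had a gap in every group, with 11 libraries at 295 to 3694 CPM and 15 at 5844 to 8872 CPM. For miR-30a-5p the same 3 values were 2129, 4605 and 6465 CPM in wild type vehicle, 4211, 5558 and 7374 in transgenic vehicle, and 3202, 4847 and 6918 in Vorinostat libraries. The groups of miR-30a-5p overlapped over most of their range.

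miR-30e-5p, which differs from miR-30a-5p by 1 base, averaged 1073 ± 390 CPM (SD, n = 26). Its lowest, median and highest values were 150, 968 and 1361 CPM in wild type vehicle, 753, 1421 and 1641 in transgenic vehicle, and 501, 883 and 1717 in Vorinostat libraries. miR-30b-5p was the scarcest guide at 87.1 ± 49.9 CPM (SD, n = 26), with 6.24, 76.8 and 142 CPM in wild type vehicle, 47.4, 122 and 186 in transgenic vehicle, and 12.1, 96.8 and 136 in Vorinostat libraries. The lowest value of both was in wild type vehicle replicate 1, where miR-30b-5p rested on 3 counts.

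**Figure D1:**
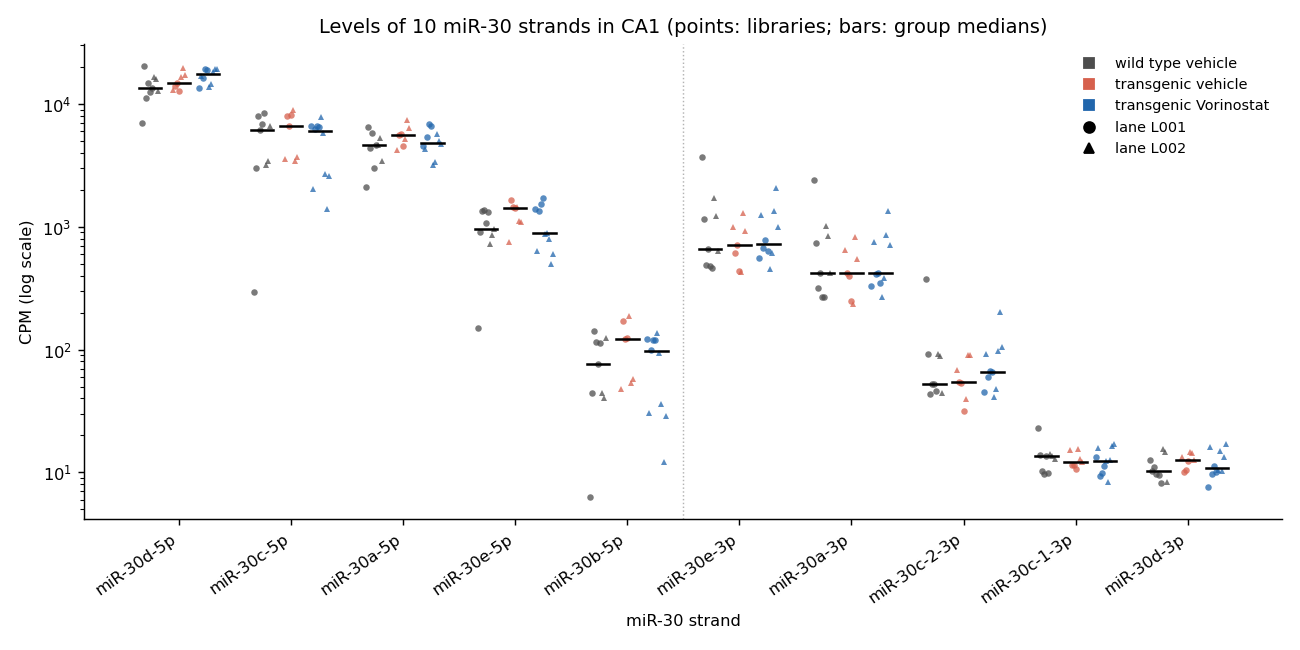
Level of each miR-30 strand in CPM on a log scale (y axis) by strand (x axis), with guides left of the dotted line and 3p strands right of it, each point a library, colour its group, shape its lane and bars the group medians. The groups overlap for every strand, miR-30d-5p is highest with a mean of 15505 CPM, and 1 wild type library lies far from the others for miR-30c-5p (295 CPM), miR-30b-5p (6.24 CPM) and miR-30c-2-3p (377 CPM).

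The 3p strands lay at 3 levels. miR-30e-3p averaged 973 ± 697 CPM (SD, n = 26) and miR-30a-3p 609 ± 461 CPM, ranks 70 and 87 of 1389. Below both in 26 of 26 libraries came miR-30c-2-3p at 82.1 ± 69.2 CPM, and below it miR-30c-1-3p and miR-30d-3p at 12.9 ± 3.09 and 11.8 ± 2.61 CPM. Neighbours in the order were often alike: miR-30e-3p was below miR-30e-5p in 16 of 26 libraries, miR-30c-2-3p below miR-30b-5p in 15, and miR-30d-3p below miR-30c-1-3p in 15.

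Lowest, median and highest values of miR-30e-3p were 459, 663 and 3695 CPM in wild type vehicle, 430, 711 and 1297 in transgenic vehicle, and 453, 727 and 2065 in Vorinostat libraries. For miR-30a-3p they were 266, 423 and 2412 CPM in wild type vehicle, 235, 417 and 822 in transgenic vehicle, and 268, 417 and 1355 in Vorinostat libraries. miR-30c-2-3p gave 43.1, 52.3 and 377 CPM, then 31.4, 54.6 and 89.8, then 40.8, 66.1 and 202 in the same group order. The group medians of these 3 strands lay close together, and the highest value of each was in wild type vehicle replicate 1.

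The hairpins differed in the share of their reads that came from the 5p strand. The share of 5p counts among the counts of both strands had a median of 99.93% for miR-30d, 99.80% for miR-30c-1, 99.04% for miR-30c-2, 92.0% for miR-30a, 76.2% for miR-30b and 63.1% for miR-30e. For miR-30b the 3p strand was miR-30b-3p, which is not among the 10 members, and both miR-30c hairpins were set against the same miR-30c-5p counts, so their shares are upper limits. The share of miR-30d stayed between 99.82% and 99.95% in all 26 libraries. That of miR-30a ranged from 46.9% to 95.7%.

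In reads, miR-30e had no constant leading strand. Its 3p strand exceeded its 5p strand in 10 of 26 libraries: wild type vehicle replicates 1, 2, 7 and 8, transgenic vehicle replicates 8 and 10, and Vorinostat replicates 7, 8, 9 and 10. These were 2 of 13 libraries in lane L001 and 8 of 13 in lane L002, and the part of the lane in this was not tested. The 5p share of miR-30e was lowest in wild type vehicle replicate 1, at 3.90%, from 72 counts of miR-30e-5p and 1776 of miR-30e-3p. Its 95% Wilson interval of 3.11% to 4.88% covers counting error only. The highest share was 77.0%, in transgenic vehicle replicate 6. Between the lowest and the highest library the ratio of 5p to 3p counts moved 82.1-fold for miR-30e, 328-fold for miR-30c-2, 25.1-fold for miR-30a and 3.82-fold for miR-30d. Without the 2 libraries that stood apart, these spans were 7.99-fold, 11.6-fold, 4.85-fold and 2.08-fold.

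**Figure D2:**
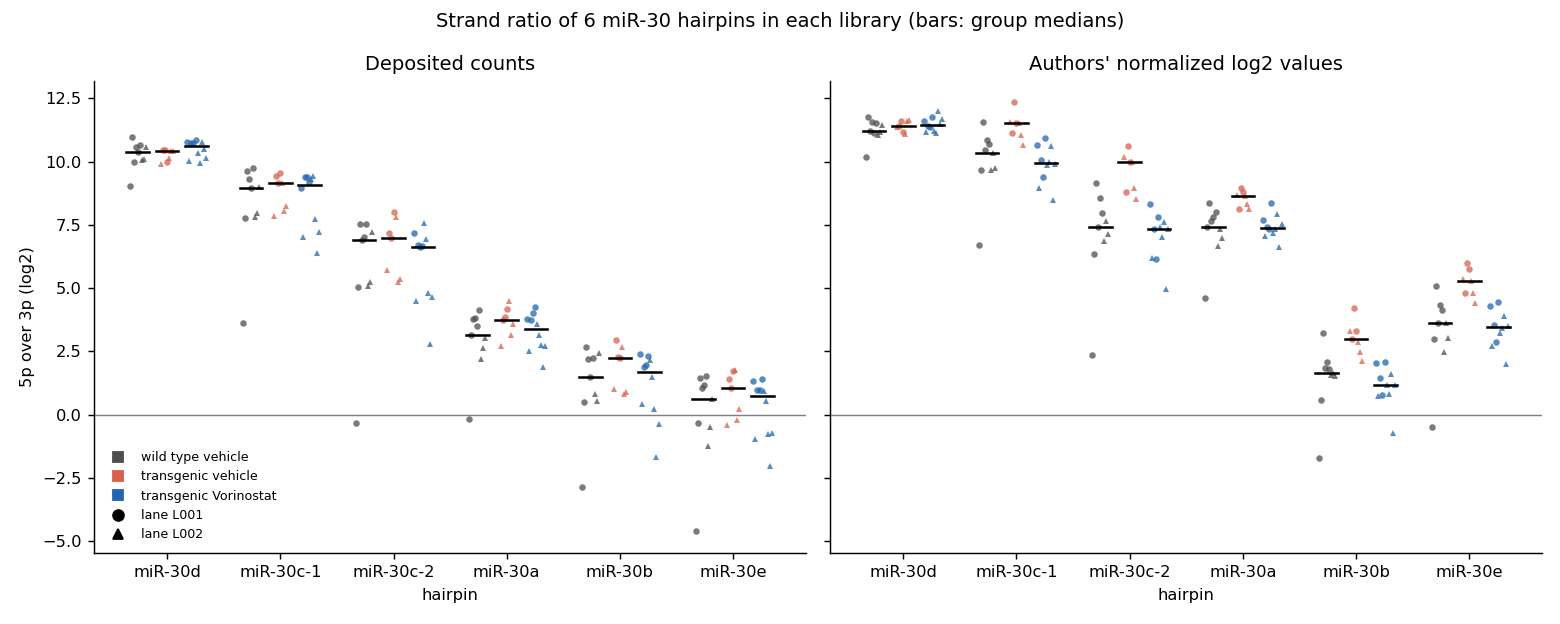
Log2 of 5p over 3p (y axis) for 6 hairpins (x axis) in each library, from the deposited counts (left) and as the difference of the authors' normalized log2 values (right), with colour the group, shape the lane and bars the group medians. In the counts miR-30e scatters on both sides of 0 and 10 of 26 libraries are below it, while in the authors' values the transgenic vehicle medians are above both other groups for miR-30a, miR-30b, miR-30c-1, miR-30c-2 and miR-30e.

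The first comparison asked how the miR-30 strands of transgenic mice on vehicle differ from those of wild type mice on vehicle. In the deposited counts, all 5 guides lay above 0 in log2 difference and 4 of the 5 3p strands below it, but none of the 10 passed. By edgeR's quasi-likelihood test with Benjamini-Hochberg adjustment, 0 of 605 miRNAs (0%) had an adjusted p under 0.05. At an unadjusted p under 0.05 there were 13 (2.15%) and no member, while DESeq2 gave 18 and limma voom 7 at that level and 0 adjusted. Above 0 lay 6 of 10 members against 54.4% of all tested miRNAs, and no member had groups that did not overlap (0% of all tested).

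Among the guides, miR-30a-5p had the smallest unadjusted p of the family, with a log2 difference of 0.33 (SE 0.20) and an interval of -0.06 to 0.71. In edgeR's test its adjusted p was 0.98. The differences were 0.39 (SE 0.30) for miR-30e-5p, 0.45 (SE 0.47) for miR-30b-5p, 0.24 (SE 0.43) for miR-30c-5p and 0.16 (SE 0.16) for miR-30d-5p. Among the 3p strands they were -0.65 (SE 0.43) for miR-30a-3p, -0.65 (SE 0.42) for miR-30c-2-3p and -0.60 (SE 0.40) for miR-30e-3p, and near 0 for miR-30c-1-3p (-0.01, SE 0.18). The intervals reach from -1.48 to 0.19 for miR-30a-3p and from -0.59 to 1.07 for miR-30c-5p, so the spread between libraries leaves room for sizeable differences in either. Without the 2 libraries that stood apart all of these differences but that of miR-30c-1-3p were closer to 0. The guides were then at 0.22 for miR-30a-5p, 0.22 for miR-30e-5p, 0.28 for miR-30b-5p, 0.050 for miR-30c-5p and 0.051 for miR-30d-5p. The 3p strands were at -0.19 for miR-30a-3p, -0.085 for miR-30c-2-3p, -0.16 for miR-30e-3p and 0.045 for miR-30c-1-3p. The median over the members was 0.17, against 0.03 over all tested miRNAs.

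The second comparison asked what Vorinostat did in transgenic mice. Here the guides other than miR-30d-5p lay below 0 and 3 of the 5 3p strands above it, again with 0 of 10 members and 0 of 605 miRNAs (0%) past the threshold in edgeR. Unadjusted, 21 miRNAs (3.47%) and no member had p under 0.05, with 26 by DESeq2 and 16 by limma voom. The log2 differences were -0.45 (SE 0.46) for miR-30b-5p, -0.32 (SE 0.41) for miR-30c-5p, -0.31 (SE 0.30) for miR-30e-5p, -0.16 (SE 0.19) for miR-30a-5p and 0.13 (SE 0.16) for miR-30d-5p. The 3p strands gave 0.43 (SE 0.40) for miR-30c-2-3p, 0.30 (SE 0.41) for miR-30a-3p and 0.28 (SE 0.39) for miR-30e-3p. Without the 2 libraries that stood apart the guides were at -0.33 for miR-30b-5p, -0.22 for miR-30c-5p, -0.24 for miR-30e-5p, -0.18 for miR-30a-5p and 0.095 for miR-30d-5p. The 3p strands were then at 0.16 for miR-30c-2-3p, 0.059 for miR-30a-3p and 0.056 for miR-30e-3p. For miR-30c-5p 1 of 10 Vorinostat libraries exceeded the transgenic vehicle median, and likewise for miR-30b-5p, with no share over all miRNAs computed. The values of miR-30c-5p had a gap, and above it lay 6 of the 10 Vorinostat and 4 of the 7 transgenic vehicle libraries. Above 0 lay 4 of 10 members against 49.3% of all tested miRNAs. This comparison and the first share the 7 transgenic vehicle libraries with opposite sign, so their opposite directions are not independent of each other.

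The third comparison placed Vorinostat-treated transgenic mice beside wild type mice, and its edgeR calls were again 0 of 605 (0%) with 0 of 10 members. Unadjusted, 19 miRNAs (3.14%) had p under 0.05, 29 by DESeq2 and 23 by limma voom, 1 of these a member by limma voom. The smallest p of the family belonged to miR-30d-5p, which was above the wild type median in 10 of 10 Vorinostat libraries (no share over all miRNAs was computed). Its log2 difference was 0.29 (SE 0.15), with p = 0.0562 and an adjusted p of 0.9997 in edgeR, and 0.15 without the 2 libraries that stood apart. The other 9 members lay between -0.34 and 0.17, or between -0.17 and 0.091 without those 2, and 5 of 10 members lay above 0 against 52.9% of all tested miRNAs.

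Group means of the log2 ratio of 5p to 3p counts were then tested with two-sided exact permutations, 18 tests adjusted together. None passed, and the smallest p was 0.160 with an adjusted value of 0.707. For the genotype comparison the mean log2 ratio of miR-30e differed by 0.89 (SE 0.73), that of miR-30c-2 by 0.92 (SE 0.94) and that of miR-30a by 0.77 (SE 0.49). Without wild type vehicle replicate 1 these genotype differences were 0.33, 0.16 and 0.39. For Vorinostat the differences were -0.62 (SE 0.51), -0.78 (SE 0.66) and -0.43 (SE 0.33) for miR-30e, miR-30c-2 and miR-30a. Without Vorinostat replicate 8 they were -0.37, -0.44 and -0.28. For miR-30b the genotype difference was 0.71 (0.22 without wild type vehicle replicate 1) and the Vorinostat difference -0.75 (-0.44 without Vorinostat replicate 8), and for miR-30c-1 they were 0.58 (0.0071) and -0.38 (-0.16). The miR-30d ratio differed by 0.0025 (SE 0.21) for genotype, -0.15 without wild type vehicle replicate 1, and by 0.23 (SE 0.14) for Vorinostat. Within lanes L001 and L002 the genotype difference was 1.35 and 0.72 for miR-30e and 1.77 and 0.18 for miR-30c-2, and the Vorinostat difference was -0.21 and -0.84 for miR-30e and -0.59 and -0.83 for miR-30c-2. The L001 genotype values rest on wild type vehicle replicate 1, and without it they were 0.42 for miR-30e and 0.58 for miR-30c-2. The L002 Vorinostat values without Vorinostat replicate 8 were -0.53 and -0.35.

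The Vorinostat and transgenic vehicle libraries share 7 replicate numbers, and same-numbered libraries deviated together, with correlations from 0.27 to 0.60 in all 7 pairs. Only 3 of the 7 correlated best with their own number, and 6 of the 7 pairs also share a lane. What the numbers mean is not stated in the labels, so the pairs are an assumption. Compared within these pairs, the 5p to 3p ratio was lower with Vorinostat in 7 of 7 pairs for miR-30e, miR-30c-2 and miR-30b. The mean log2 differences were -0.83 (SD 0.57), -0.93 (SD 0.74) and -0.99 (SD 0.80). The exact permutation p of each was 0.0156, the smallest that 7 pairs can give, and 0.0938 after adjustment, which did not pass. Without the pair that holds Vorinostat replicate 8, each was lower in 6 of 6 pairs, by -0.66, -0.68 and -0.74. miR-30a was lower in 6 of 7 pairs (-0.58, SD 0.60), miR-30c-1 in 5, and miR-30d was higher in 5. Among all 167 miRNA names with both strands tested, the ratio was lower in every pair for 14 (8.38%) and higher in every pair for 9 (5.39%). The genotype groups share 6 numbers, which did not all deviate together and are not taken as pairs. Lined up by number all the same, the miR-30a ratio was higher in transgenic vehicle in each of the 6, by 0.46 (SD 0.23). The exact permutation p was 0.0313, the smallest that 6 can give, and 0.141 adjusted, but it rests on pairs that were not adopted. Over all libraries of both groups the exact permutation p of miR-30a was 0.162, and 0.707 adjusted. Of the 167 names 4 (2.4%) were higher and 2 (1.2%) lower in each of the 6.

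**Figure D3:**
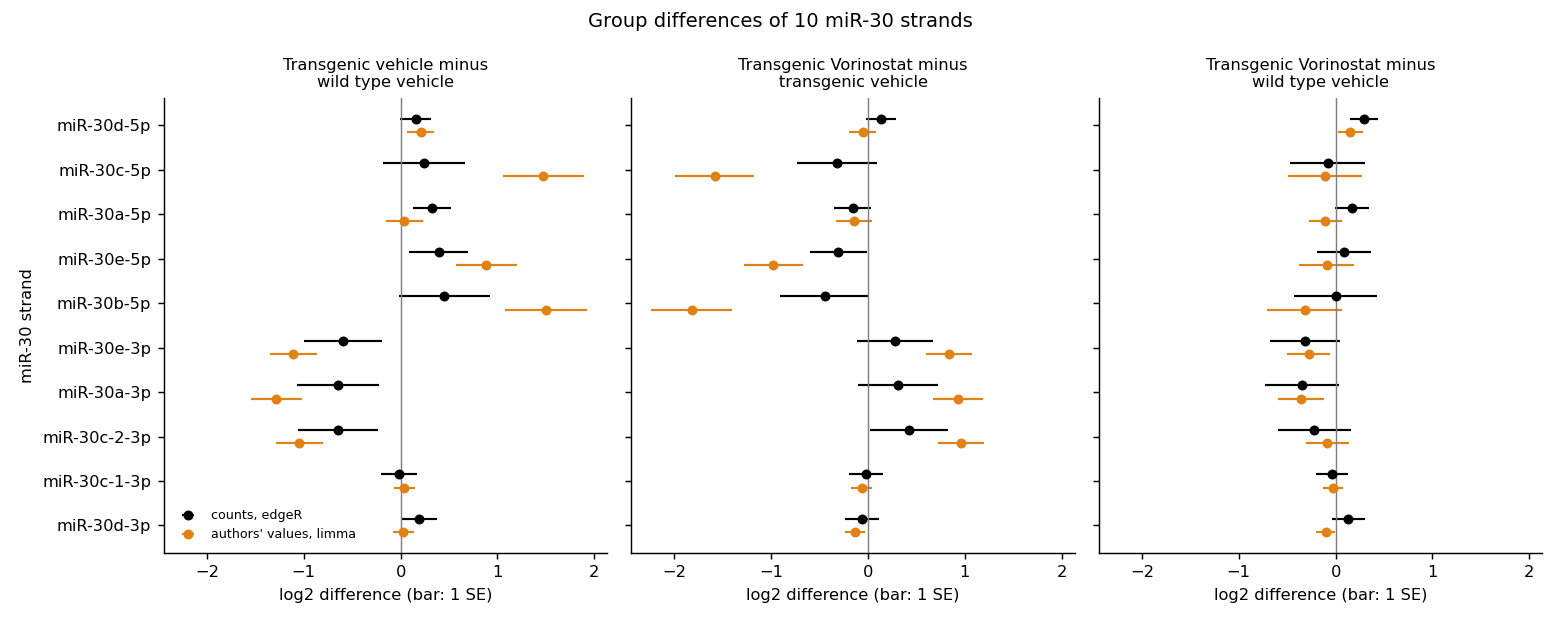
Log2 difference of each strand (x axis, bars 1 SE) for 10 miR-30 strands (y axis) in the 3 comparisons, from deposited counts with edgeR in black and from the authors' normalized values with limma in orange. The orange points of miR-30b-5p, miR-30c-5p, miR-30e-5p, miR-30a-3p, miR-30c-2-3p and miR-30e-3p lie farther from 0 than the black ones in the first 2 panels (for miR-30c-5p 1.47 against 0.24), while for miR-30a-5p the genotype difference is 0.33 in black and 0.039 in orange.

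The authors' own normalized values gave other results than their counts. These values cover 674 miRNAs on a log2 scale, and neither the labels nor the headers state how they were made or whether the groups entered. With limma, 367 of the 674 (54.5%) differed in the genotype comparison, 230 higher (34.1%) and 137 lower (20.3%) in transgenic vehicle. For Vorinostat 362 (53.7%) differed, 111 higher (16.5%) and 251 lower (37.2%). The members stood at 6 of 10 in each, close to this background. In the third comparison 6 miRNAs (0.89%) and no member differed. Degrees of freedom that the normalization may have used are not counted in these tests.

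By these values 3 guides were higher and 3 3p strands lower in transgenic vehicle than in wild type vehicle libraries. The limma log2 differences were 1.50 (SE 0.43, adjusted p = 0.00686) for miR-30b-5p, 1.47 (SE 0.42, adjusted p = 0.00696) for miR-30c-5p and 0.89 (SE 0.31, adjusted p = 0.0205) for miR-30e-5p. For miR-30a-3p the limma difference was -1.28 (SE 0.26, adjusted p = 0.00184), for miR-30e-3p -1.11 (SE 0.24, adjusted p = 0.00229) and for miR-30c-2-3p -1.05 (SE 0.24, adjusted p = 0.00305). All 6 kept overlapping groups, where 7.57% of the 674 did not overlap. Without transgenic vehicle replicate 3 the call of miR-30e-5p was lost and 5 members remained. Each of the other single libraries could be left out with 6 members called, though the values were not normalized anew without it.

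With Vorinostat the same 6 strands had the opposite sign by limma on the authors' values. The differences were -1.82 (SE 0.42, adjusted p = 0.00256) for miR-30b-5p, -1.59 (SE 0.41, adjusted p = 0.00348) for miR-30c-5p and -0.98 (SE 0.31, adjusted p = 0.0110) for miR-30e-5p. They were 0.96 (SE 0.24, adjusted p = 0.00307) for miR-30c-2-3p, 0.93 (SE 0.26, adjusted p = 0.00518) for miR-30a-3p and 0.83 (SE 0.24, adjusted p = 0.00638) for miR-30e-3p. Vorinostat libraries did not overlap transgenic vehicle libraries for miR-30b-5p and miR-30c-5p, 2 of 10 members, as was so for 13.6% of the 674. Both comparisons share the transgenic vehicle libraries. Neither miR-30a-5p, miR-30d-5p, miR-30c-1-3p nor miR-30d-3p passed in any comparison.

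The strand ratios from the authors' values followed the same division. By exact permutation tests 5 of 6 hairpins passed in the genotype comparison and 5 of 6 for Vorinostat, all but miR-30d. No share over all strand pairs is given for these values, so this count cannot be read as particular to miR-30. Of all single miRNAs, 54.5% and 53.7% differed by limma in these 2 comparisons. The genotype differences were 2.52 for miR-30c-2, 1.99 for miR-30e, 1.65 for miR-30b, 1.44 for miR-30c-1 and 1.32 for miR-30a, with adjusted exact permutation p from 0.00492 to 0.0142. With Vorinostat they were -2.55, -1.81, -1.93, -1.52 and -1.07 in the same order, with adjusted exact permutation p from 4.63e-04 to 0.00148. These calls held when any single library was left out of the tests. The values were not normalized anew for this, so it cannot test the part of the normalization. The group medians of the miR-30e log2 ratio were 3.63 in wild type vehicle, 5.28 in transgenic vehicle and 3.45 in Vorinostat libraries by the authors' values, and 0.60, 1.04 and 0.75 by the counts. The normalized values thus set the ratio of miR-30e higher in all 3 groups, and the groups farther apart, than the counts did.

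The members moved together in ways that crossed the hairpins. After subtraction of group means, miR-30c-5p and miR-30c-2-3p had a Pearson r of -0.95 over 26 libraries, the 2 strands of miR-30e -0.80, those of miR-30c-1 -0.77 and those of miR-30b -0.69, while miR-30a had -0.03 and miR-30d 0.19. These values are descriptions, since all points share the library and its scaling. Within lanes L001 and L002 they were -0.96 and -0.96 for miR-30c-2, -0.91 and -0.76 for miR-30e, -0.87 and -0.51 for miR-30c-1, and -0.94 and -0.19 for miR-30b. Without the 2 libraries that stood apart they were -0.90, -0.63, -0.60 and -0.35 in the same order, and 0.39 for miR-30a. The r of miR-30c-2, miR-30e and miR-30c-1 was thus negative in each lane and without those libraries, though each lane value includes 1 of the 2. In L002 the value of miR-30c-1 was weaker (-0.51) and that of miR-30b was close to 0.

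**Figure D4:**
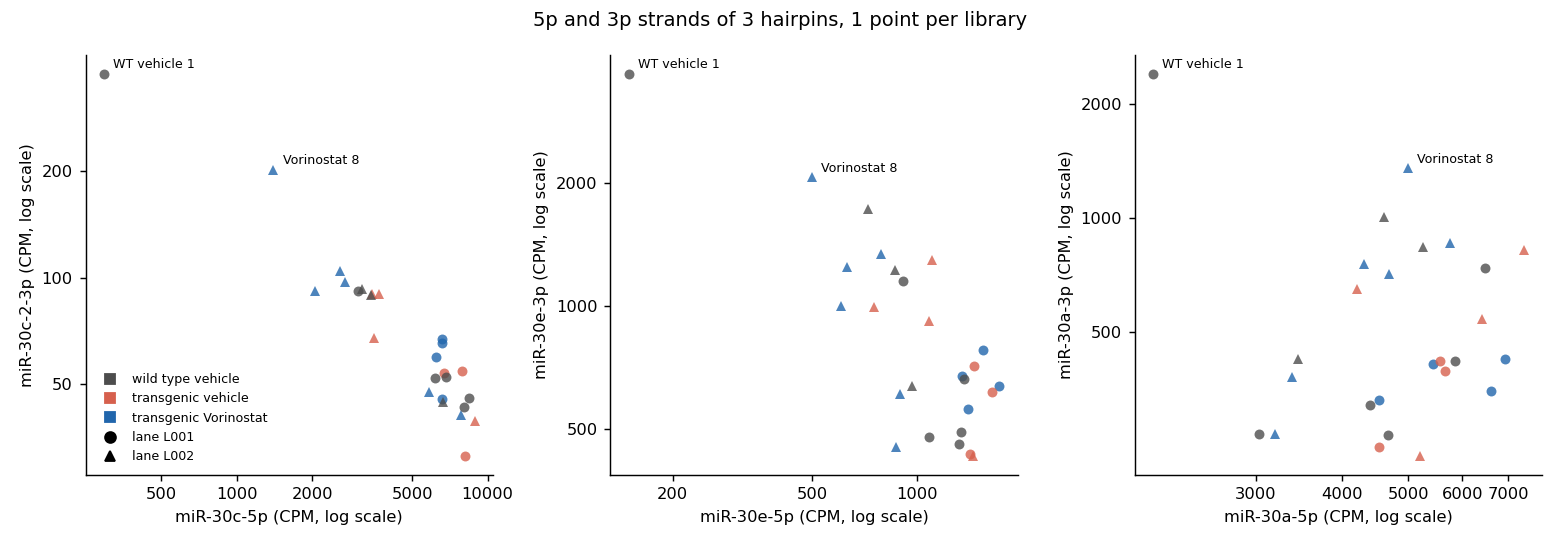
CPM of the 3p strand (y axis, log scale) against the 5p strand (x axis, log scale) for miR-30c-2, miR-30e and miR-30a, 1 point per library, with colour the group and shape the lane. The points of miR-30c-2 fall into sets below 3694 and above 5844 CPM of miR-30c-5p. Wild type vehicle replicate 1 and Vorinostat replicate 8 lie at the upper left for miR-30c-2 and miR-30e. For miR-30a, Vorinostat replicate 8 has 5006 CPM of miR-30a-5p, near the median of 4847 CPM over all libraries.

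The libraries also lay in 2 sets, on either side of the gap in miR-30c-5p. The 11 libraries below it were 4 wild type vehicle, 3 transgenic vehicle and 4 Vorinostat libraries, 9 of them in lane L002, and they included 9 of the 10 libraries numbered 7 to 10. The 15 above it were 11 libraries of lane L001 and 4 of L002. The sets were seen in the values of miR-30c-5p and are not groups of the study. Splitting there narrows the range of miR-30c-5p and of what moves with it, which can weaken r. Values of r within the sets are therefore descriptions and cannot show whether a relation holds. For miR-30c-5p and miR-30c-2-3p r was -0.46 in the 15 libraries above the gap and -0.94 in the 11 below it, or 0.24 in the 9 below it other than the 2 that stood apart. For the strands of miR-30e the same 3 values were 0.35, -0.83 and 0.05. Those of miR-30c-1 gave 0.28, -0.86 and -0.37, and those of miR-30b -0.33, -0.77 and 0.28. Why the sign differed between sets was not tested.

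Between hairpins, miR-30a-3p and miR-30e-3p, which differ by G18A, had r of 0.99 over 26 libraries and 0.99 in each lane. miR-30a-5p and miR-30e-5p, which differ by C13U, had only 0.56 over all libraries, 0.72 in L001 and -0.19 in L002. Beside the gap they had 0.90 above it and 0.93 below it, which describes sets chosen after the data were seen. The 3p strands of miR-30c-1 and miR-30c-2, which differ at 3 bases, had 0.71 over all libraries, 0.82 in L001 and 0.47 in L002, with -0.17 above the gap and 0.75 below it, or -0.44 below it without the 2 libraries that stood apart. Over all libraries, likeness of sequence thus did not go with one common degree of relation (0.99, 0.56 and 0.71). miR-30b-5p and miR-30c-5p had 0.96, with 0.98 and 0.99 in the lanes, and miR-30c-5p and miR-30e-5p 0.93, with 0.98 and 0.83. miR-30a-5p and miR-30d-5p had 0.83, with 0.91 and 0.92. Across strands, miR-30c-5p had -0.93 with miR-30a-3p, and -0.96 and -0.97 in the lanes. miR-384-5p, which has the guide seed but is not a listed member, had 0.87 with miR-30c-5p, and 0.87 and 0.94 in the lanes. In total 55 such relations among the members and miR-384-5p were computed.

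**Figure D5:**
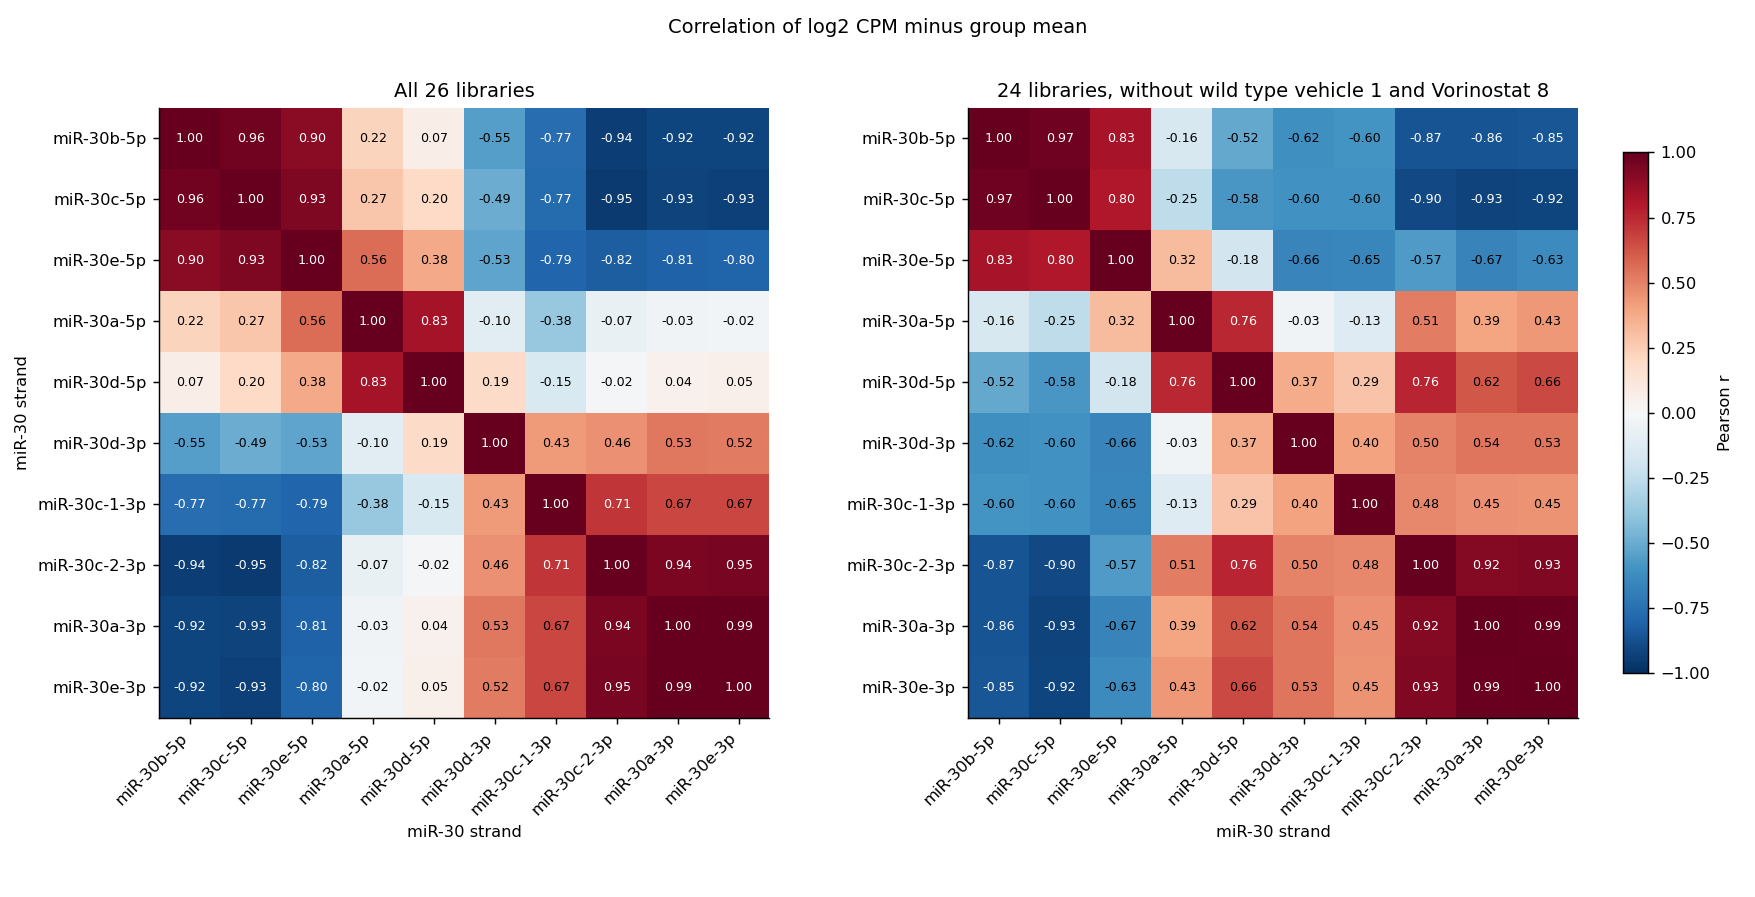
Pearson r between the log2 CPM of 10 miR-30 strands (both axes) after subtraction of group means, over all 26 libraries (left) and over the 24 other than the 2 that stood apart (right). The negative values between miR-30c-5p and the 3p strands of miR-30a and miR-30c-2 remain on the right (-0.93 and -0.90), whereas miR-30a-5p and miR-30e-5p go from 0.56 to 0.32.

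The authors' deposited table of co-expression modules divides the family in a like way, and it was built from these libraries. It places miR-30b-5p, miR-30c-5p, miR-30e-5p and miR-30d-3p in the turquoise module with 404 of 674 miRNAs, although the membership score of miR-30d-3p there is -0.05. miR-30a-3p, miR-30c-2-3p and miR-30e-3p are in the blue module of 197 miRNAs, each with a membership of 0.98. miR-30a-5p is in brown (0.88), miR-30d-5p in yellow (0.83) and miR-30c-1-3p in green (0.80), all per the authors' deposited table.

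Lane was not called for any member. Of 605 miRNAs 1 passed between the lanes in edgeR, and the members with the smallest p, miR-30e-5p and miR-30d-3p, differed by -0.64 and 0.41 (L002 minus L001), each with an adjusted p of 0.188 in edgeR. miR-30b-5p differed by -0.69 and miR-30a-3p by 0.58. miRNAs known from the failing heart and from hippocampal plasticity were not called from the counts either. Of 14 tested miRNAs of 19 listed for heart remodelling and fibrosis, 0 passed in each comparison by edgeR, with medians of 0.33, -0.30 and 0.08. Of these 14, 14 lay above 0 for genotype, 3 for Vorinostat and 10 in the third comparison, against 54.4%, 49.3% and 52.9% of all tested miRNAs. All 14 miRNAs listed for hippocampal plasticity were tested and 0 passed, with medians of 0.16, -0.15 and -0.03. Of them 10, 3 and 5 lay above 0. Neither list was counted again without the 2 libraries that stood apart, and both were chosen with earlier results of these data known. The miRNAs of a list come from the same libraries, so the numbers above 0 are not independent observations. Over all libraries, the miRNAs whose levels followed the summed guides most closely, of 595 compared by Pearson r, were miR-203-3p (0.97), miR-146a-5p (0.93) and miR-671-5p (0.91). These were 0.88, 0.77 and 0.56 without the 2 libraries that stood apart.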

How the data were processed

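Small RNA was sequenced from CA1 tissue with the TruSeq small RNA kit, per the labels' protocols. FastQC 0.11.5 and mm10 are listed in the submitters' processing notes, and neither aligner nor counting tool is named there. The authors' deposited files hold raw counts per mature miRNA, normalized values on a log2 scale, and a table of module membership scores with p-values of membership, per the file headers; those p-values were not used. Groups came from the labels. Counts were tested in R 4.3.3 with edgeR 4.0.16 (quasi-likelihood, TMM factors, filterByExpr with a minimum count of 10, total 15) in 1 model of 3 groups without covariates; adjusted p under 0.05 passed. CPM used TMM-scaled totals. Strand ratios are log2((5p + 0.5)/(3p + 0.5)), tested with exact permutations in SciPy 1.17.1. Intervals of differences are 1.96 SE. limma 3.58.1 was run on the normalized values, and DESeq2 1.42.0 and limma voom on counts. The scripts were tested on simulated data. All 10 members were named, with the other lists. The members and lists were chosen with earlier results of these data known. For single strands the within-lane values and the authors' values were added after seeing the data, as were the pairs over all miRNAs, the relations between strands of different hairpins, the sets beside the gap, and the lane and pair values without the 2 libraries that stood apart. Replicate numbers were taken to pair Vorinostat with transgenic vehicle libraries (7 of 7 correlations over 0.1, 3 of 7 best with their own number). Of these pairs, 6 of 7 also share a lane. For genotype 4 of 6 correlations were over 0.1, and 0 of 6 were best with their own number.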

Additional observations from a re-analysis of the deposited data

Results flagged for a closer look

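A library was called outlying where its gap to the nearest library of its group was too large a part of the group's range by Dixon's criterion. This was so for 11 of 48 groups of values, and all 11 were in wild type vehicle replicate 1, the library with the fewest counts, so they are a single observation. Chance flags about 1 in 20 groups. In log2 CPM this library held 2.68 for miR-30b-5p, 8.21 for miR-30c-5p and 7.23 for miR-30e-5p, all below the other 8 wild type vehicle libraries. It held 4.53 for miR-30c-1-3p and 8.56 for miR-30c-2-3p, above those 8. Its log2 ratio of 5p to 3p was -0.18 for miR-30a, 9.02 for miR-30d, -4.61 for miR-30e, 3.63 for miR-30c-1, -0.35 for miR-30c-2 and -2.87 for miR-30b, each the lowest of its group. Its sum of neuronal marker miRNAs was also the lowest of all libraries. The part of depth and tissue makeup in these values was not tested.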

How the results depend on the processing

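The counts gave 0 calls in each comparison under other scaling, other filters, DESeq2, limma voom, a lane term, and with any single library left out. The fit with the replicate block also gave 0 calls in each (12, 29 and 18 at an unadjusted p under 0.05), so it changed no call. With the authors' values in limma, 6 members passed for genotype and 6 for Vorinostat, of 367 and 362 miRNAs, while 6 miRNAs passed in the third comparison, and 5 hairpins passed in each of the first 2. The cause of this difference from the counts was not tested. The strands that turned in direction had small differences from the counts. For genotype, miR-30c-1-3p was 0.027 with library totals, 0.024 unfiltered, 0.043 with DESeq2, 0.031 with voom, 0.027 in L002, 0.045 without both libraries apart and 0.039 with the authors' values. For Vorinostat, miR-30a-5p was 0.12 in L001, miR-30d-5p -0.010 with library totals and -0.056 with the authors' values, and miR-30c-1-3p 0.010 at a mean of at least 10 CPM. In the third comparison miR-30b-5p was -0.039 with RLE, -0.078 with totals, -0.020 unfiltered, -0.023 at 10 CPM, -0.030 with DESeq2, -0.063 with voom, -0.042 with the block, -0.33 in L002, -0.043 without both and -0.32 with the authors' values. There miR-30a-5p was -0.043 in L002 and -0.11 with the authors' values, miR-30c-5p 0.035 with voom, 0.028 with lane and 0.19 in L001, and miR-30e-5p -0.28 in L002, -0.015 without both and -0.092 with the authors' values. miR-30c-2-3p was 0.063 with voom, 0.0059 with the block, 0.34 in L002 and 0.072 without both, and miR-30d-3p -0.095 in L001 and -0.10 with the authors' values.

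Of the strand ratios, miR-30d for genotype was -0.013 in L002, -0.12 with the replicate pairs and -0.15 without both libraries apart, and miR-30a for Vorinostat 0.022 in L001. In the third comparison miR-30e was -0.12 in L002 and -0.045 without both, miR-30c-1 -0.40 and -0.15 there and -0.084 with the authors' values, miR-30c-2 -0.65, -0.27 and -0.028 likewise, and miR-30b 1.10 in L001 and 0.039 with pairs. The strand correlation of miR-30a was 0.16 by Spearman, 0.70 in L002 and 0.39 without both, and that of miR-30d -0.22 in L001. For miR-30c-1 it was -0.51 in L002, and for miR-30b -0.19 in L002 and -0.35 without both, these 3 no longer past the threshold. With each library left out in turn, differences that changed sign ranged in the third comparison from -0.57 to 0.090 for miR-30a-3p, -0.17 to 0.13 for miR-30b-5p, -0.28 to 0.034 for miR-30c-5p, -0.12 to 0.018 for miR-30c-1-3p, -0.47 to 0.31 for miR-30c-2-3p, -0.52 to 0.10 for miR-30e-3p and -0.097 to 0.17 for miR-30e-5p. miR-30c-1-3p ranged from -0.065 to 0.043 for genotype and -0.096 to 0.033 for Vorinostat. Ratios ranged from -0.15 to 0.090 for miR-30d (genotype) and, in the third comparison, -0.040 to 0.50 for miR-30a, -0.53 to 0.27 for miR-30b, -0.37 to 0.42 for miR-30c-1, -0.61 to 0.48 for miR-30c-2 and -0.29 to 0.52 for miR-30e. Strand ratios correlated with log10 library totals (Pearson r 0.64 to 0.77 over 26 libraries), but with r of 0.0087 to 0.26 once the 2 libraries that stood apart were left out. The Pearson values thus rest largely on those. Spearman values over 26 libraries ran from 0.29 for miR-30a to 0.55 for miR-30c-1. Their adjusted permutation p was 0.0295 for miR-30c-1 and from 0.051 to 0.146 for the others.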

Other observations

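Across 514 miRNAs with a sequence in the RefSeq table, the correlation with miR-30c-5p over 24 libraries, without the 2 that stood apart, differed by base composition. The median r was 0.46 for the 158 miRNAs with GC content under 45%, -0.11 for 209 between 45% and 55%, and -0.49 for 147 over 55%. Across miRNAs, GC content and r had a correlation of -0.39. By first base the medians lay between -0.16 and 0.06. The GC content of the strands shown above is 40.9% for miR-30e-5p, 43.5% for miR-30c-5p, 45.5% for miR-30a-5p and miR-30e-3p, 50% for miR-30a-3p and miR-30c-2-3p and 54.5% for miR-30c-1-3p. These are values across miRNAs of the same libraries, chosen after the data were seen, and their cause was not tested.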
